A study of Mus musculus with 30 samples.

Results

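Local thyroid hormone action in the mouse hypothalamus was followed through 7 genes: Dio2 and Dio3, which encode deiodinases, Slco1c1, which encodes a hormone transporter, Thra and Thrb, which encode the nuclear receptors, and Hr and Klf9, known response genes of the hormone. They were taken by gene name, matched on the Ensembl identifier, from 3 deposited count tables that list 52286 genes (fasting), 55401 genes (refeeding) and 22371 genes (1 month). All 7 were present in each table, and all but Dio3 in the 1-month table passed the filter on low counts. The tissue came from wild-type B6 (C57) mice, with no transgene or mutation in any group. The fasting table holds mice fasted for 72 h with cold at 18 C (3 libraries), fed mice (3), mice fasted for 24 h (3) and mice fasted for 72 h without cold (3). The refeeding table holds mice given food again after a 72 h fast, for 1 h (3), 12 h (3) or 1 week (4). The 1-month table holds mice refed for 1 month after a 72 h fast (4) and their fed controls (4). Age, sex and the number of animals behind a library are not given in the sources used here.

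Thyroid hormone reaches the brain mainly as thyroxine, the prohormone, which is carried across the blood-brain barrier and into glia by transporters such as the product of Slco1c1. There the type 2 deiodinase (Dio2), made in tanycytes and astrocytes, converts it to the active hormone triiodothyronine (T3), and the type 3 deiodinase (Dio3) inactivates both. T3 then binds receptors encoded by Thra and Thrb, which switch target genes from repression to activation, so that the hormone acting inside the hypothalamus can be set apart from that in blood.

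Both deiodinases are selenoproteins, whose catalytic selenocysteine is encoded by TGA, elsewhere a stop codon. The 33 bases around that codon are shown because the codon sets these enzymes apart from ordinary genes and because the pathway list below holds the genes that read it. They are transcript sequences of GENCODE M21, with the catalytic selenocysteine codon in capitals (codon 130 of Dio2, at chr12:90729823-90729825 on the minus strand, and codon 170 of Dio3, at chr12:110279739-110279741 on the plus strand, GRCm38). A further annotated selenocysteine codon of Dio2, codon 263, is not shown.
Dio2: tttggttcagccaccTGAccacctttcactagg
Dio3: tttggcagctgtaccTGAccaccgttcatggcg
Within this window 21 of 33 bases are identical between them (63.6%). The 250 bases before the RefSeq start of Dio2 (GRCm38.p6, minus strand, chr12:90739039-90739288) are shown because Dio2 is regulated by cyclic AMP in other tissues. The capitals mark the one match to the cyclic AMP response element TGACGTCA, whose first base lies at position -95 from the start.
Dio2 promoter: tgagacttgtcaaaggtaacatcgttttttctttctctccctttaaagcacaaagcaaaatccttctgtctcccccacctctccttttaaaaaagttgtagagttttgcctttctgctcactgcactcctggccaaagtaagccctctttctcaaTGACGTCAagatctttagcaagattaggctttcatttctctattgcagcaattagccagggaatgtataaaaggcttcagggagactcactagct
Of 32851 promoters of this length, 1.55% held that element on either strand. The promoters of Dio3, Slco1c1, Thrb and Klf9 held none. The thyroid hormone element core AGGTCA, which 14% of promoters held, was found once among these 5 genes, at position -184 of the first Thrb promoter. None of the 5 held the direct repeat of that core with 4 bases between or the palindromic glucocorticoid response element, which 0.0152% and 0.00913% of promoters held. Such matches describe these letters in these windows and are not evidence of a working site.

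Library totals were between 27.1 and 43.4 M counts (M, 1e6 counts) in the fasting table, 26.1 and 64.3 M in the refeeding table and 9.35 and 13.8 M in the 1-month table. Levels are CPM, a library's counts scaled to a common total of 1e6, with TMM factors within a table. Each of the 12 hypothalamic markers was detected in every library. Of 465 genes that lie wholly inside a gene of the opposite strand and reached 100 counts after 1 month or in its controls, 428 (92%) had no count in the fasting and refeeding tables. Those 2 tables thus appear to have been counted over whole gene spans with strand ignored, and the 1-month table not, though no source used here states it. Levels are therefore not compared between tables. Some libraries stood apart. Fed library 2 had the most liver and muscle transcripts, with summed liver markers between 2.54 and 961 CPM over the fed libraries (between 47.3 and 168 CPM after 24 h and 1.92 and 2.28 CPM after 72 h) and summed muscle markers between 2.20 and 1129 CPM, and 24 h library 2 had the highest summed cortical neuron markers of the fasting table, 182 CPM against 44.9 and 61.4 CPM in the other 24 h libraries.

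A gene is said to have risen or fallen, or is called, where the Benjamini-Hochberg adjusted p of edgeR's quasi-likelihood test, over all genes tested in its table, was below 0.05. Changes are log2 fold changes ± SE, with the group named first on top. Comparisons within the fasting and refeeding tables share groups, so their values are not independent of each other. After a 24 h fast none of the 7 members was called against fed mice, where 0.0343% of all genes were. An unadjusted p below 0.05 was found for 2 of them (10.4% of all genes), and DESeq2 called 1 (1.18% of all genes). Their groups did not overlap for 2 members, against 13.2% of all genes. At 72 h against 24 h none was called (1.63% of all genes), 5 did not overlap (34.2% of all genes), the unadjusted p of 3 was below 0.05 (23.5% of all genes), and 1 was called by DESeq2 (8.7% of all genes).

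After 72 h against fed, 2 of 7 were called, where 15.1% of all genes were, and 4 did not overlap (41.1% of all genes). With cold against 72 h without cold, edgeR called none of the 7 and 0% of all genes, the unadjusted p of 3 members was below 0.05 (6.35% of all genes), 2 did not overlap (15.5% of all genes), and none was called by DESeq2 (0.279% of all genes). With cold against the 24 h fast, edgeR and DESeq2 each called 0 of 7 (edgeR called 6.98% and DESeq2 13.9% of all genes), the unadjusted p of 4 was below 0.05 (26.9% of all genes) and 5 did not overlap (31.9% of all genes). With cold against fed, 2 of 7 were called (17.9% of all genes) and 3 did not overlap (38% of all genes).

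In refeeding, 2 of 7 were called at 12 h against 1 h (14.2% of all genes), and 4 did not overlap (31.9% of all genes). At 1 week against 12 h, 2 of 7 were called (11.6% of all genes) and 2 did not overlap (24% of all genes). At 1 week against 1 h, 4 of 7 were called, each lower (26.9% of all genes were called and 13.5% called lower), and 5 did not overlap (36.9% of all genes). The 1-week libraries were the deepest of that table (46.9 to 64.3 M counts), and the part of depth in any 1-week result was not tested. At 1 month against fed controls, none of the 6 tested was called by edgeR or DESeq2, while edgeR called 10.1% and DESeq2 13.4% of all genes. None of them had an unadjusted p below 0.05 (27.1% of all genes), and the libraries of each overlapped (15.7% of all genes did not). With 7 genes, a count of 2 stands little apart from such a background, and the results below turn on which members were called. Hr was among those called in each of the 5 comparisons with a call.

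**Figure D1:**
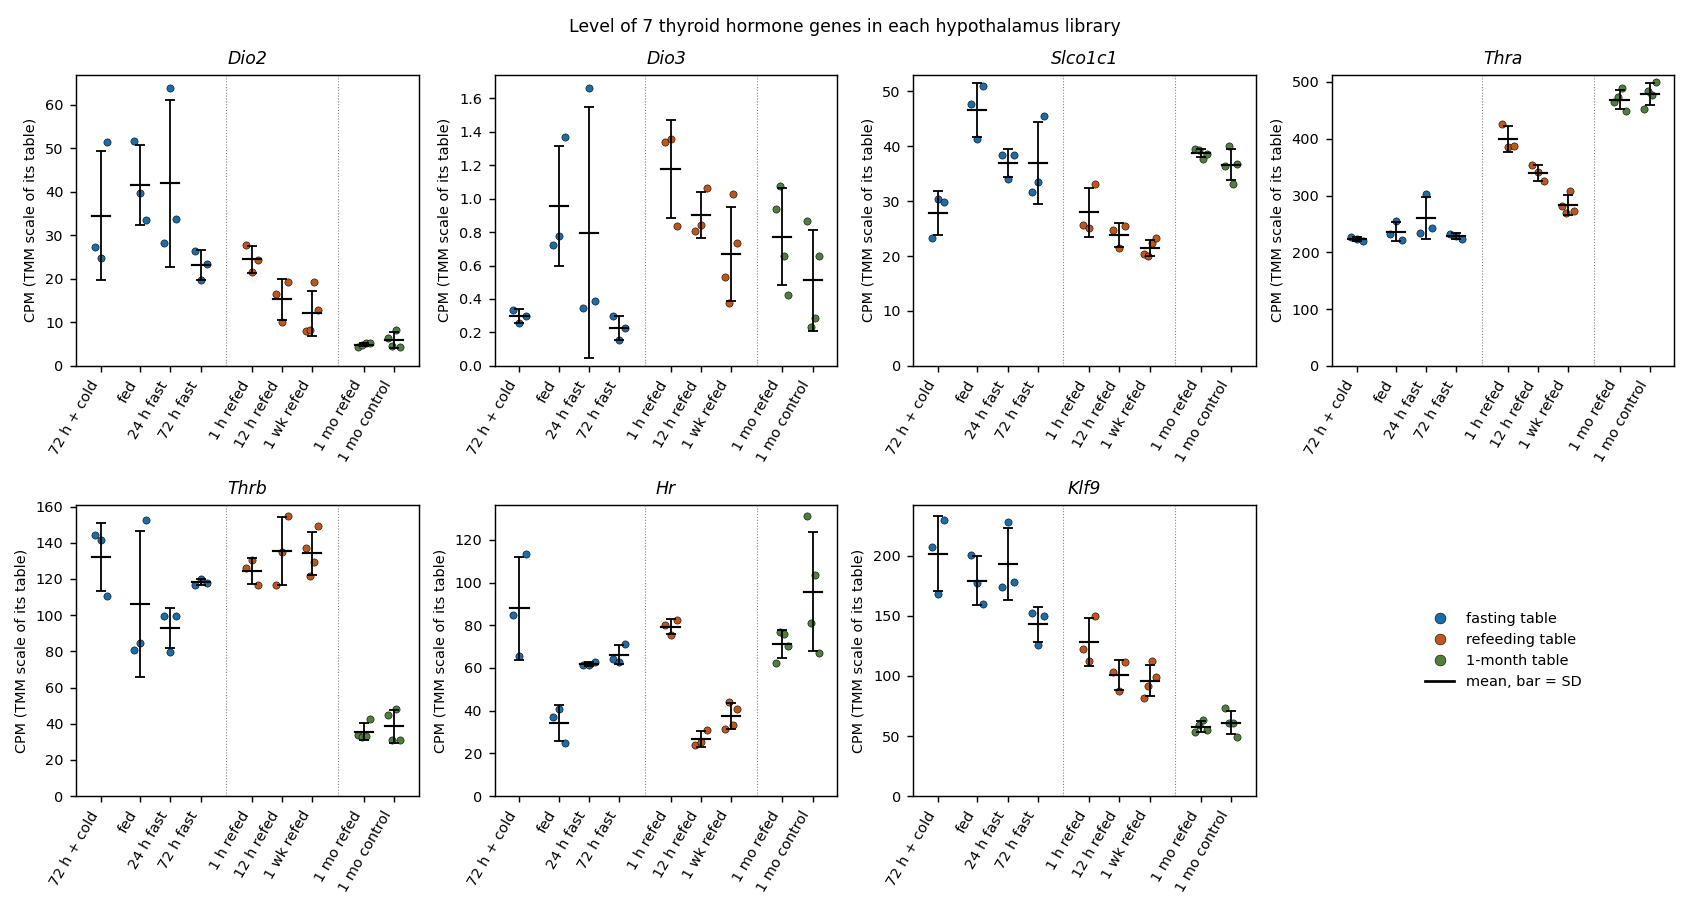
Each panel plots the level of 1 gene in CPM on the TMM scale of its table, 1 point per library, with the group mean and SD, for the 9 groups. Dotted lines part the 3 tables, between which levels are not compared. Hr stands between 24.0 and 31.0 CPM in the 12 h refed libraries and between 75.5 and 82.3 CPM in the 1 h refed libraries.

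**Figure D2:**
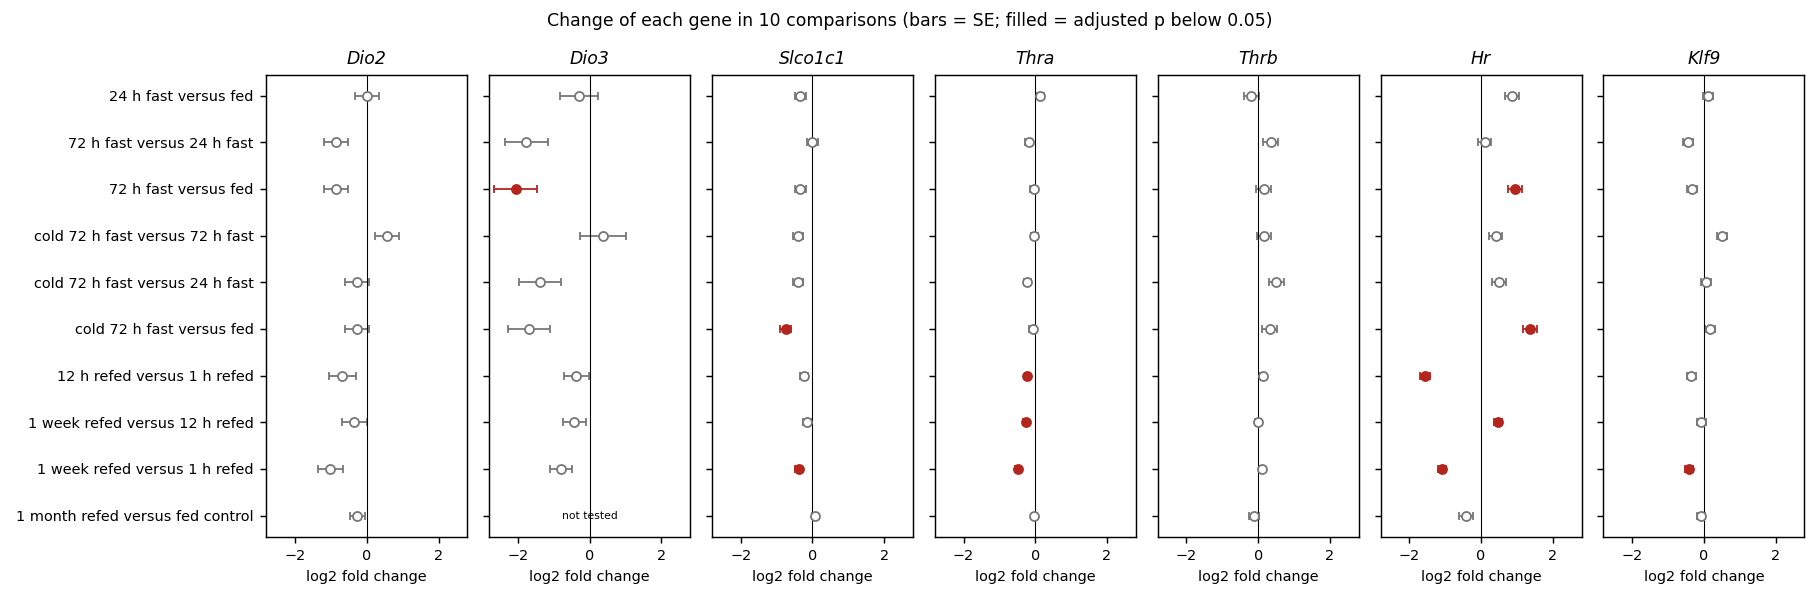
Log2 fold change of each gene (columns) in the 10 comparisons (from top to bottom), with bars of 1 SE. Filled points have an edgeR adjusted p below 0.05. Hr has 5 filled points and Thra 3, while Dio2 and Thrb have none.

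Dio2, the enzyme that makes T3 in the brain (GRCm38 chr12:90724552-90738438, minus strand), was not called in any of the 10 comparisons. It stood at 51.6, 39.8 and 33.5 CPM in fed libraries, 28.2, 64.0 and 33.6 CPM after 24 h and 26.5, 19.7 and 23.4 CPM after 72 h of fasting. All 72 h libraries lay below all fed and all 24 h libraries, and 24 h library 2 lay above every other library of the table. The 72 h level was 23.2 ± 3.40 CPM, against 41.7 ± 9.18 CPM in fed libraries (SD, n = 3 each), a change of -0.84 ± 0.33 with an edgeR adjusted p of 0.10. DESeq2 called it (adjusted p = 0.0319), as did edgeR on these 2 groups alone (adjusted p = 0.0149). With cold, libraries stood at 27.4, 24.8 and 51.5 CPM, and the groups overlapped (change 0.58 ± 0.33 against 72 h without cold, edgeR adjusted p = 0.88).

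After refeeding Dio2 was lower at later times, without a call. It stood at 27.7, 21.5 and 24.4 CPM at 1 h, 16.5, 10.2 and 19.3 CPM at 12 h, and 7.99, 8.28, 19.2 and 12.7 CPM at 1 week. All libraries of 12 h and of 1 week lay below all of 1 h, and those of 1 week overlapped those of 12 h. The change at 1 week against 1 h was -1.02 ± 0.35 (edgeR adjusted p = 0.065). It was called by DESeq2 (adjusted p = 0.0224) and by edgeR without 1-week library 3, the highest of its group (-1.34, adjusted p = 0.00634). One month of refeeding gave 4.89 ± 0.435 CPM, against 5.90 ± 1.85 CPM in fed controls (SD, n = 4 each), with overlapping libraries.

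Markers of cortical neurons, cells of another brain region, varied over the same libraries as Dio2. The 6 markers, all above 0 in every fasting and refeeding library, summed to between 104 and 148 CPM in fed libraries, 44.9 and 182 CPM after 24 h, and 19.6 and 58.0 CPM after 72 h. With cold they summed to between 36.8 and 63.9 CPM, below all fed libraries, while Dio2 with cold, at 24.8 to 51.5 CPM, overlapped them. In the refeeding table they summed to between 99.7 and 121 CPM at 1 h, 24.0 and 100 CPM at 12 h and 20.4 and 31.0 CPM at 1 week of refeeding. The 24 h library with 64.0 CPM of Dio2 was the one with 182 CPM of these markers. Of the 6 markers 3 fell at 72 h against fed (7.78% of all genes were called lower) and 5 at 1 week against 1 h (13.5%). Among 10 striatal neuron markers 7 fell at 72 h against fed, to sums between 447 and 523 CPM, against 669 and 1188 CPM in fed libraries. At 12 h of refeeding the striatal sums lay between 1287 and 1640 CPM, against 688 and 1553 CPM at 1 h. None of 10 was called by edgeR (14.2% of all genes were), while every 12 h library was below every 1 h library in Dio2. The summed tanycyte markers lay between 70.5 and 118 CPM after 72 h, against 127 and 169 CPM in fed libraries, and 2 of 11 fell, Vim and Crym. At 1 week they lay between 123 and 151 CPM, against 133 and 137 CPM at 1 h. The summed astrocyte markers lay between 3416 and 3593 CPM after 72 h. That was below all fed (4121 to 5124 CPM) and all 24 h libraries (3666 to 4677 CPM). With cold they lay between 3944 and 4181 CPM, overlapping fed libraries. At 1 h of refeeding they lay between 3439 and 3558 CPM. Those of 12 h (2749 to 3308 CPM) and 1 week (3026 to 3396 CPM) were lower, although more astrocyte markers rose than fell at 1 week against 1 h. The part of any of these cell types in the values of Dio2, or in those of Dio3 and Klf9 over the same groups, was not tested. In bulk tissue, fewer cells of a type and less RNA per cell cannot be told apart.

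Dio3, the enzyme that inactivates the hormone (chr12:110279068-110281097, plus strand, 1 exon), was the member with the fewest counts and fell after 72 h of fasting. It had 19, 23 and 48 counts in fed libraries, 11, 45 and 13 after 24 h and 11, 5 and 10 after 72 h. In CPM all 72 h libraries (0.152 to 0.298) were below all fed (0.721 to 1.37) and all 24 h libraries (0.344 to 1.66). Of the 24 h libraries, library 2 alone was high, at 1.66 CPM. The change at 72 h against 24 h was -1.77 ± 0.60 and was not called (edgeR adjusted p = 0.12). The 72 h level was 0.226 ± 0.0730 CPM, against 0.956 ± 0.357 CPM in fed libraries (SD, n = 3 each), a change of -2.07 ± 0.59 (edgeR adjusted p = 0.0368), or 4.18-fold lower. This call was lost when any single library of either group was left out (edgeR adjusted p between 0.0694 and 0.111) and with 1 surrogate variable (-0.97, adjusted p = 0.79).

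With cold, Dio3 had 11, 8 and 10 counts, close to the 72 h fast without cold and below all fed libraries. Its change against fed, -1.68 ± 0.58, was not called by edgeR (adjusted p = 0.061) and was called by DESeq2 (adjusted p = 0.0367). In the refeeding table it had 42, 39 and 28 counts at 1 h, 21, 25 and 36 at 12 h, and 30, 18, 65 and 43 at 1 week, from deeper libraries. These were 1.18 ± 0.295 CPM at 1 h, 0.903 ± 0.139 CPM at 12 h (SD, n = 3 each) and 0.667 ± 0.281 CPM at 1 week (n = 4), and no comparison was called. The change at 1 week against 1 h was -0.79 ± 0.31 (edgeR adjusted p = 0.068), and without 1-week library 3 it was called (-1.08, adjusted p = 0.0177). In the 1-month table Dio3 had between 4 and 15 counts in refed libraries and between 3 and 9 counts in fed controls and, below the filter on low counts, was not tested here. In the authors' deposited table of fed control over 1 month refed it had a log2 fold change of -0.68 and a q-value of 0.156.

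Slco1c1, the thyroxine transporter of brain capillaries and glia (chr6:141524368-141570177, plus strand), fell in the cold-fasted group and after refeeding. With cold it stood at 23.2, 30.4 and 29.8 CPM, against 47.6, 41.3 and 50.9 CPM in fed libraries. Every cold-fasted library was below every fed one, and also below every library fasted for 72 h without cold, at 31.7, 33.5 and 45.5 CPM. The change against fed was -0.74 ± 0.15 (edgeR adjusted p = 0.00823), or 1.68-fold lower, and it was lost with 1 surrogate variable (-1.01, adjusted p = 0.13). Against 72 h without cold it was -0.41 ± 0.15 and not called (edgeR adjusted p = 0.67). At 24 h the libraries had 38.4, 34.0 and 38.4 CPM, all below the fed ones, with no call (-0.34 ± 0.15, edgeR adjusted p = 0.46).

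In the refeeding table Slco1c1 stood at 25.7, 25.1 and 33.2 CPM at 1 h, 24.7, 21.5 and 25.6 CPM at 12 h and 20.4, 20.1, 22.3 and 23.2 CPM at 1 week. The 1-week libraries lay below all 1 h libraries, and those of 12 h overlapped both. The change at 1 week against 1 h was -0.38 ± 0.10 (edgeR adjusted p = 0.0115), which was not called without 1 h library 3, the highest of its group (-0.24, adjusted p = 0.0814). After 1 month the level was 38.8 ± 0.795 CPM, against 36.6 ± 2.83 CPM in fed controls (SD, n = 4 each; edgeR adjusted p = 0.57).

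Endothelial markers were read in the same groups. With cold 8 of 12 fell against fed (9.16% of all genes were called lower) and 1 rose, with a median change of -0.65, and after 72 h without cold 8 of 12 fell (7.78% of all genes were called lower). Flt1, a receptor for vascular growth factor, fell by 1.01 ± 0.11 on the log2 scale with cold against fed (edgeR adjusted p = 5.67e-04). The 12 markers, none of them at 0 in any library, summed to between 216 and 268 CPM with cold, 316 and 351 CPM in fed libraries, 284 and 303 CPM after 24 h, and 241 and 250 CPM after 72 h. At 1 week they summed to between 131 and 145 CPM, against 172 and 235 CPM at 1 h, and 3 of 12 fell and none rose (13.5% of all genes were called lower). At 12 h they summed to between 142 and 205 CPM, overlapping those of 1 h, and 2 fell and 2 rose (14.2% of all genes were called). After 1 month of refeeding they summed to between 505 and 633 CPM, against 422 and 473 CPM in fed controls, and 5 of 12 rose (6.37% of all genes were called higher), while Slco1c1 was not called. Their part in the values of Slco1c1 was not tested.

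**Figure D3:**
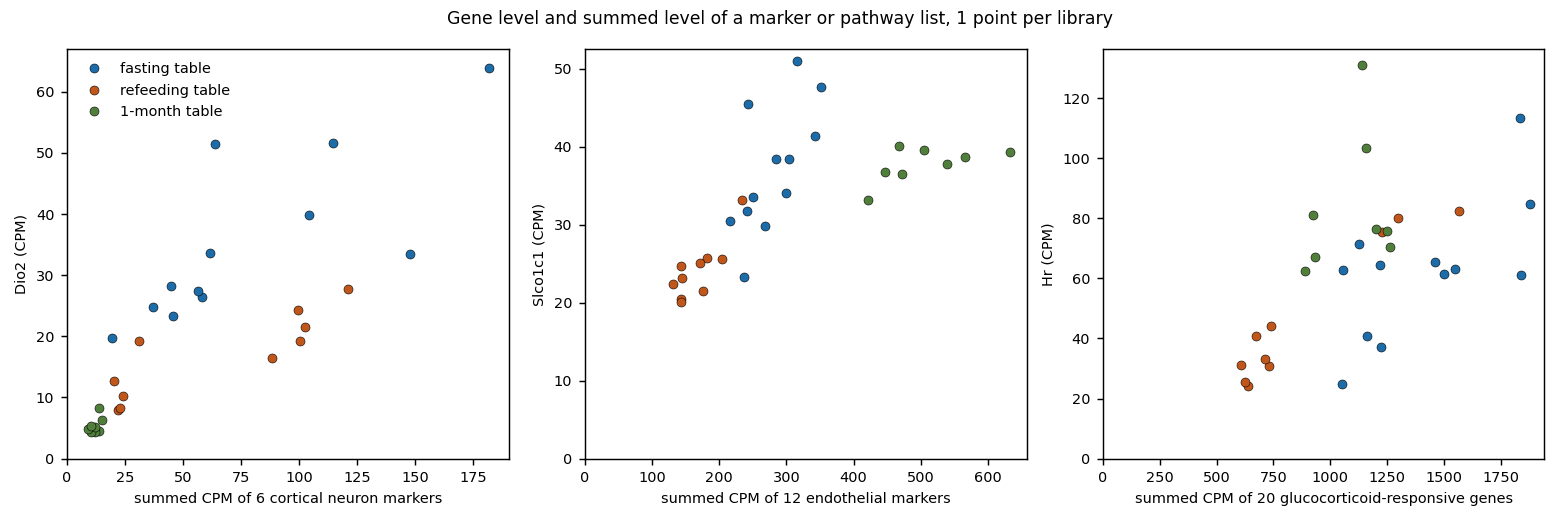
Level of Dio2, Slco1c1 and Hr (CPM, vertical axes) against the summed level (CPM) of 6 cortical neuron markers, 12 endothelial markers and 20 glucocorticoid-responsive genes, 1 point per library, coloured by table. The 24 h library with 64.0 CPM of Dio2 is the point at 182 CPM of cortical markers, and in the Hr panel the 12 h and 1-week refed libraries, at 24.0 to 44.1 CPM of Hr, have list sums between 608 and 739 CPM, while fed libraries with 25.0 to 40.8 CPM of Hr have sums between 1052 and 1221 CPM.

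Thra (chr11:98740638-98769006, plus strand), which encodes receptor isoforms that bind T3 and others that do not, stood at 232, 255 and 221 CPM in fed libraries, 235, 303 and 243 CPM after 24 h and 233, 229 and 223 CPM after 72 h. With cold it stood at 227, 224 and 220 CPM. The fed and fasted groups overlapped apart from the 24 h libraries, which lay above all 72 h libraries with and without cold, and no comparison of this table was called. The change at 72 h against fed was -0.05 ± 0.10 (edgeR adjusted p = 0.76). Counts per gene do not separate the isoforms.

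Thra fell through refeeding. It stood at 425, 385 and 387 CPM at 1 h, 353, 342 and 325 CPM at 12 h and 282, 269, 308 and 273 CPM at 1 week, and no library of one time overlapped those of another. The change at 12 h against 1 h was -0.23 ± 0.07 (edgeR adjusted p = 0.0418), at 1 week against 12 h -0.26 ± 0.07 (adjusted p = 0.0202) and at 1 week against 1 h -0.50 ± 0.07 (adjusted p = 1.24e-04), or 1.41-fold lower. The last of these was called under all 13 alternatives. The first was lost under 7 of 12, among them each 1 h library left out, and the second under 4 of 13. The 1-week libraries were also the deepest of the table, with 46.9 to 64.3 M counts, against 28.5 to 33.1 M at 1 h and 26.1 to 34.0 M at 12 h, and the part of this in the 1-week values was not tested. One month of refeeding gave 469 ± 16.7 CPM, against 478 ± 19.3 CPM in fed controls (SD, n = 4 each; edgeR adjusted p = 0.82).

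The end of Thra overlaps Nr1d1, the clock repressor gene on the opposite strand, over 1075 bases. This stretch holds the whole last exon of Thra, of 850 bases, or 18.4% of its exonic bases. Nr1d1 itself stood at 57.0 ± 1.14 CPM at 12 h, against 71.3 ± 6.61 CPM at 1 h (SD, n = 3 each), and fell (-0.32 ± 0.08, edgeR adjusted p = 0.0129). At 1 week it was also lower than at 1 h (-0.28 ± 0.07, edgeR adjusted p = 0.00976), with overlapping libraries. Between 1 week and 12 h, where Thra fell, its change was 0.04 ± 0.07 (edgeR adjusted p = 0.73). No source used here states whether reads of the shared stretch were counted for Thra, for Nr1d1 or for neither. Of the genes checked above that lie wholly inside a gene of the opposite strand, 92% had no count in the fasting and refeeding tables. Reads of shared stretches thus appear not to have been counted for both genes there. That check does not show whether the outer gene received them.

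**Figure D4:**
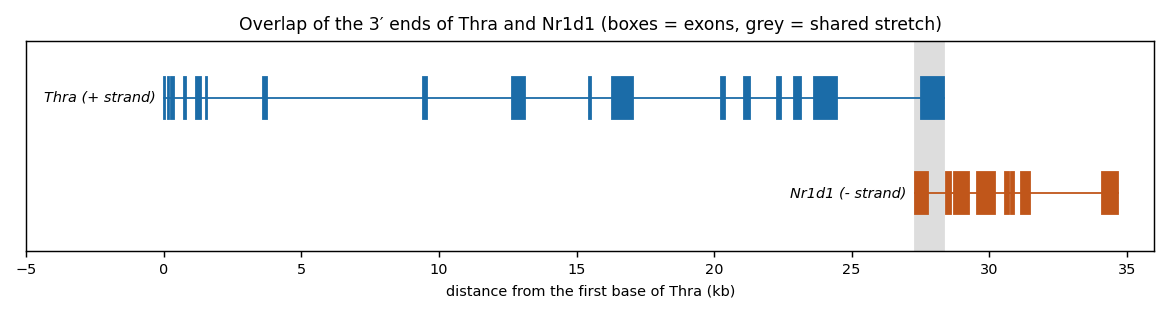
Position of the exons (boxes) of Thra on the plus strand and Nr1d1 on the minus strand, in kb from the first base of Thra, with the shared stretch of 1075 bases in grey. The shared stretch covers 3.79% of the span of Thra, all of it at the end of the gene.

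Thrb, which encodes the receptor of hormone feedback in hypothalamus and pituitary (chr14:17660261-18038090, plus strand), was not called in any comparison. It stood at 80.6, 84.9 and 153 CPM in fed libraries, 99.3, 79.9 and 99.5 CPM after 24 h, 117, 120 and 118 CPM after 72 h, and 144, 141 and 111 CPM with cold. Fed library 3, at 153 CPM, was the highest of the table and the other fed libraries were among its 3 lowest. Without it, Thrb was called higher after 72 h (0.51, edgeR adjusted p = 0.0163) and with cold (0.67, adjusted p = 0.00504), against 0.16 ± 0.20 (adjusted p = 0.62) and 0.32 ± 0.20 (adjusted p = 0.28) with all libraries. Leaving out fed library 1 brought the change at 72 h to -0.01 (edgeR adjusted p = 0.98).

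Refeeding left Thrb between 117 and 131 CPM at 1 h, 117 and 155 CPM at 12 h and 122 and 149 CPM at 1 week, with overlapping groups and changes between -0.01 and 0.12. After 1 month it stood at 33.5, 32.6, 33.4 and 42.7 CPM, against 44.6, 30.9, 48.3 and 31.0 CPM in fed controls, also overlapping. Exons make up 1.96% of its span, and a gene on the opposite strand, Gm48321, covers 24% of it and 19.9% of its exonic bases. Gm48321 had no count in the fasting and refeeding libraries. As those tables appear to be counted over whole gene spans, their Thrb counts can include reads of introns, whose share was not tested.

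Hr, a corepressor of nuclear receptors that T3 induces in rodent brain (chr14:70552212-70573548, plus strand, with no overlapping gene), was called in 5 comparisons, more than any other member. In the fasting table it stood at 37.0, 40.8 and 25.0 CPM in fed libraries, 61.5, 61.2 and 63.0 CPM after 24 h and 64.4, 63.0 and 71.4 CPM after 72 h. Every fasted library was above every fed one. At 72 h the level was 66.3 ± 4.53 CPM, against 34.3 ± 8.26 CPM in fed libraries (SD, n = 3 each), a 1.94-fold rise (0.95 ± 0.19, edgeR adjusted p = 0.0131). The call at 72 h was lost with 1 surrogate variable (1.23, edgeR adjusted p = 0.34) and without 72 h library 3 (0.88, adjusted p = 0.0577). At 24 h the change was 0.85 ± 0.19 and was not called by edgeR (adjusted p = 0.18), whereas DESeq2 called it (adjusted p = 0.00536).

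With cold Hr stood at 84.9, 65.6 and 113 CPM, above all fed libraries. The change against fed was 1.36 ± 0.19 (edgeR adjusted p = 0.00289), or 2.57-fold higher, and was lost under 1 of 13 alternatives, that with 1 surrogate variable (1.65, adjusted p = 0.11). Against 72 h without cold it was 0.41 ± 0.19 (edgeR adjusted p = 0.79), with overlapping libraries.

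The largest change of Hr among the 10 comparisons was that at 12 h against 1 h of refeeding. It stood at 80.3, 75.5 and 82.3 CPM at 1 h, 24.0, 25.6 and 31.0 CPM at 12 h and 31.3, 44.1, 33.3 and 40.8 CPM at 1 week. The 1 h libraries lay far above all others, and each 1-week library lay above each 12 h library. At 12 h Hr was 2.95-fold lower than at 1 h (-1.56 ± 0.13, edgeR adjusted p = 3.67e-05), and was so called under all 12 alternatives. At 1 week it was 2.12-fold lower than at 1 h (-1.09 ± 0.11, edgeR adjusted p = 6.84e-05), called under all 13 alternatives, and 1.39-fold higher than at 12 h (0.47 ± 0.12, edgeR adjusted p = 0.0261), a call lost under 4 of 13. After 1 month Hr stood at 62.5, 76.6, 75.8 and 70.4 CPM, against 131, 81.1, 103 and 67.1 CPM in fed controls. The groups overlapped through 1 control library, and the change was -0.42 ± 0.19 (edgeR adjusted p = 0.19). Without that control, library 5 at 67.1 CPM, Hr was called lower (-0.56, edgeR adjusted p = 0.0195).

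Klf9, a transcription factor induced by T3 and by glucocorticoids (chr19:23141226-23168134, plus strand), fell at 1 week of refeeding against 1 h. It stood at 122, 112.4 and 150.2 CPM at 1 h, 103, 87.5 and 111.5 CPM at 12 h and 81.7, 91.3, 112.1 and 98.8 CPM at 1 week. All 12 h and 1-week libraries lay below all 1 h libraries, the highest of them only just, and they overlapped each other. The change at 1 week against 1 h was -0.42 ± 0.12 (edgeR adjusted p = 0.0262). It was lost under 6 of 13 alternatives, without the filter on low counts (edgeR adjusted p = 0.0771) and without any of 5 libraries (1 h libraries 1 and 3, and 1-week libraries 1, 2 and 4; adjusted p between 0.0511 and 0.101). At 12 h against 1 h it was -0.35 ± 0.13 and not called (edgeR adjusted p = 0.11), although DESeq2 called it (adjusted p = 0.0451).

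In the fasting table Klf9 stood at 201, 177 and 160 CPM in fed libraries, 174, 228 and 178 CPM after 24 h and 152, 126 and 150 CPM after 72 h, and none of its changes was called. All 72 h libraries were below all fed and all 24 h libraries. With cold it stood at 207, 168 and 230 CPM, above all 72 h libraries without cold, a change of 0.50 ± 0.14 (edgeR adjusted p = 0.53). Against 24 h, the change at 72 h was -0.44 ± 0.14, which edgeR did not call (adjusted p = 0.11) and DESeq2 did (adjusted p = 0.0425). At 1 month it was 57.7 ± 4.45 CPM, against 61.1 ± 9.65 CPM in fed controls (SD, n = 4 each).

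How the members varied together differed between tables. Over the 30 libraries, with each table centred on its own mean, Pearson's r of log2 CPM was 0.83 for Dio2 with Klf9, 0.51 for Hr with Klf9, 0.31 for Dio2 with Hr and -0.44 for Thra with Thrb. Within the refeeding table r lay between 0.68 and 0.93 for the pairs of Dio2, Slco1c1, Thra and Klf9 (10 libraries), and within the fasting table between -0.27 and 0.83 (12 libraries). Within the 1-month table r for the same pairs lay between -0.86 (Dio2 with Slco1c1) and 0.57 (Dio2 with Klf9). For Dio2 with Hr it was -0.13 in the fasting, 0.58 in the refeeding and 0.77 in the 1-month table (8 libraries). These are descriptions over libraries that share groups, depth and composition, and carry no test. Among 13284 genes tested in all tables with at least 1 CPM in each, the genes most like Dio2 were Dusp6 (r = 0.85), Atp2b1 (0.83) and Slc17a7 (0.83), the last a cortical neuron marker. Slco1c1 was most like Zfp366 (0.80), Flt1 (0.75) and Tut7 (0.74), and Flt1 is an endothelial marker. Thra was most like Fbxl16 (0.88), Pik3r2 (0.87) and Ajm1 (0.86), and among the genes most like Thrb were Nol4 (0.86) and Negr1 (0.84). Hr was most like Plin4 (0.89), Smox (0.88) and Pla2g3 (0.88), and Klf9 most like Dio2 (0.83), Fam107a (0.82) and Stum (0.81). Plin4 and Fam107a belong to the list of glucocorticoid-responsive genes.

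Members of a list of glucocorticoid-responsive genes were called in each of the 5 comparisons in which Hr was, and also in 3 in which Hr was not. At 12 h against 1 h of refeeding 17 of 19 fell and none rose (median -1.12 against 0.00 over all genes, of which 7.14% were called lower). Plin4, a lipid droplet coat gene, stood at 8.85 ± 1.92 CPM at 12 h, against 94.5 ± 8.97 CPM at 1 h (SD, n = 3 each; -3.41 ± 0.16, edgeR adjusted p = 9.30e-07). The same number, 17 of 19, fell at 1 week against 1 h (median -0.97), Plin4 by 3.12 ± 0.14, where 13.5% of all genes were called lower. At 1 week against 12 h, where Hr rose, 2 of 19 rose and 1 fell (median -0.03, and 11.6% of all genes were called). With cold against fed 10 of 20 rose and none fell (median 0.64, and 8.78% of all genes were called higher), among them Fkbp5, a co-chaperone of steroid receptors, at 76.7 ± 7.74 CPM with cold, against 36.4 ± 0.984 CPM in fed libraries (SD, n = 3 each; 1.08 ± 0.10, edgeR adjusted p = 2.77e-04). After 72 h without cold 5 of 20 rose against fed and none fell (7.28% of all genes were called higher), with a list median of -0.03. After 24 h 3 of 20 rose (median 0.47, and 0.0343% of all genes were called). From 24 h to 72 h 2 fell (median -0.53, and 1.63% of all genes were called). With cold against 72 h without cold none of 20 was called by edgeR, which called 0% of all genes, at a list median of 0.59.

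The summed level of the list lay between 1461 and 1877 CPM with cold, 1052 and 1221 CPM in fed libraries, 1501 and 1837 CPM after 24 h and 1058 and 1217 CPM after 72 h. The sums after 72 h overlapped those of fed libraries, where Hr did not overlap. They were also lower after 72 h than after 24 h in every library, whereas Hr stood between 63.0 and 71.4 CPM after 72 h, against 61.2 and 63.0 CPM after 24 h. At 1 h of refeeding the sum lay between 1225 and 1568 CPM, at 12 h between 625 and 730 CPM and at 1 week between 608 and 739 CPM, so the last 2 overlapped, where Hr did not. At 1 month 5 of 19 genes of the list rose against fed controls (6.37% of all genes were called higher), while Hr, at -0.42, was not called. The part of glucocorticoid signalling in the values of Hr and Klf9 was not tested.

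Of the other Kruppel-like factors, relatives of Klf9, some fell and none rose in each comparison of the refeeding table. Of 13, 7 fell at 1 week against 1 h (median -0.27, and 13.5% of all genes were called lower), 6 at 12 h against 1 h (median -0.17; 7.14%) and 3 at 1 week against 12 h (median -0.11; 5%). Klf13 stood at 99.9 ± 9.89 CPM at 1 week (SD, n = 4), against 191 ± 9.52 CPM at 1 h (n = 3; -0.93 ± 0.08, edgeR adjusted p = 4.20e-06). Klf15, a glucocorticoid-induced member, fell by 0.87 ± 0.08 at 12 h against 1 h (edgeR adjusted p = 1.35e-05). After 72 h of fasting 1 rose and 4 of 13 fell against fed (15.1% of all genes were called), and 4 rose and 4 fell with cold (17.9%). Klf8 rose and Klf6 fell in both. At 1 month 3 of 13 rose against fed controls (6.37% of all genes were called higher).

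Cofactors of the receptors, a list of 16 retinoid X receptors, corepressors and coactivators, fell beside Thra late in refeeding. Of these 8 fell and none rose at 1 week against 1 h (median -0.21, and 13.5% of all genes were called lower), and at 1 week against 12 h 7 fell and 1 rose (median -0.19; 5% of all genes were called lower). Ep300, a coactivator acetyltransferase, stood at 161 ± 1.16 CPM at 1 week (SD, n = 4), against 214 ± 11.7 CPM at 1 h (n = 3; -0.41 ± 0.06, edgeR adjusted p = 1.38e-04), and its relative Crebbp fell by 0.40 ± 0.07. At 12 h against 1 h 3 of 16 fell, among them Rxra, the dimer partner of the receptors, and 1 rose. After 72 h of fasting Med1, the Mediator subunit that binds liganded receptors, was the 1 gene of 16 to fall (-0.39 ± 0.08, edgeR adjusted p = 0.0124), and with cold 2 fell and 2 rose against fed. None of 16 was called after 24 h or at 1 month. The shares of all genes called were 14.2% at 12 h against 1 h, 15.1% at 72 h against fed and 17.9% with cold against fed. They were 0.0343% after 24 h and 10.1% at 1 month.

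Other genes of transport and metabolism were called in small numbers. The shares of all genes called were 15.1% at 72 h against fed, 17.9% with cold against fed and 0.0343% after 24 h. They were 26.9% at 1 week against 1 h, 14.2% at 12 h against 1 h and 10.1% at 1 month. After 72 h against fed 3 of 10 fell, Ttr, Slco1b2 and Crym, the last a T3-binding protein of tanycytes at 3.58 ± 2.23 CPM after 72 h, against 15.2 ± 5.41 CPM in fed libraries (SD, n = 3 each; -2.09 ± 0.63, edgeR adjusted p = 0.0487). Ttr, the thyroxine carrier made by choroid plexus and liver, stood at 3.23 ± 2.58 CPM after 72 h, against 93.7 ± 82.8 CPM in fed libraries. Slco1b2, a transporter of liver, averaged 5.06 ± 6.96 CPM in fed libraries, among which the summed liver markers ranged from 2.54 to 961 CPM. With cold Slco1a4, another capillary transporter, fell against fed (-0.48 ± 0.12, edgeR adjusted p = 0.0228), Ttr also fell and 1 rose. At 1 week against 1 h 2 of 10 fell and 2 rose: the amino acid and hormone transporter Slc7a8 fell (-0.57 ± 0.07, edgeR adjusted p = 8.88e-05), and Sephs2, which makes the selenium donor for the TGA codon shown above, rose (0.36 ± 0.12, adjusted p = 0.0364). At 12 h against 1 h 3 of 10 fell and 1 rose. At 1 month 2 of 9 rose, and after 24 h none was called.

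Of the hypothalamus-pituitary-thyroid axis, Trh, the releasing hormone, was chosen for mention after its values were seen. It stood at 30.1 ± 3.82 CPM after 72 h, against 29.9 ± 4.88 CPM in fed libraries (SD, n = 3 each; edgeR adjusted p = 0.98), and at 41.6 ± 12.1 CPM at 1 week (n = 4), against 35.8 ± 7.17 CPM at 1 h (n = 3; adjusted p = 0.52). Pcsk1, a prohormone convertase that cuts its precursor, was the 1 gene of 9 to fall after 72 h (-0.57 ± 0.12, edgeR adjusted p = 0.0131) and fell with cold, where in all 2 fell and 1 rose. Later in refeeding, 4 of 9 rose and 1 fell at 1 week against 1 h. Tshr, the thyrotropin receptor, stood at 9.01 ± 0.773 CPM at 1 week, against 6.38 ± 0.841 CPM at 1 h (0.50 ± 0.12, edgeR adjusted p = 0.00616), and Trhde, an enzyme that degrades the releasing hormone, rose by 0.35 ± 0.09. At 12 h 2 rose, the same Tshr and Trhde, and 1 fell. The glycoprotein hormone subunit Cga rose at 1 week, to 1.33 ± 0.307 CPM (n = 4), against 0.539 ± 0.315 CPM at 1 h (n = 3). This change was 1.32 ± 0.34 (edgeR adjusted p = 0.00976). Cga was lower at 12 h than at 1 h, without a call (-1.39 ± 0.49, edgeR adjusted p = 0.072). Summed pituitary markers of this table ranged between 1.19 and 162 CPM from library to library, and the part of pituitary tissue in Cga was not tested. At 1 month Pcsk1 alone fell, and after 24 h none of the 9 was called. The shares of all genes called were 15.1% at 72 h against fed, 17.9% with cold against fed and 0.0343% after 24 h. They were 26.9% at 1 week against 1 h, 14.2% at 12 h against 1 h and 10.1% at 1 month.

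Of other brain genes known to be induced by T3, 4 of 10 fell and 1 rose after 72 h against fed (median -0.22), where Hr rose. In that comparison 7.78% of all genes were called lower and 7.28% higher. Nrgn, a postsynaptic calmodulin-binding protein of forebrain, stood at 51.7 ± 1.97 CPM after 72 h, against 126 ± 15.9 CPM in fed libraries (SD, n = 3 each; -1.29 ± 0.23, edgeR adjusted p = 0.00943), and Camk4, Thrsp and Rasd2 fell with it. Nrgn and Camk4 are abundant in cortex, and Rasd2 is also a striatal marker, so the marker sums given beside Dio2 bear on this list too, and their part in it was not tested. From 24 h to 72 h 3 of 10 fell (1.63% of all genes were called), and with cold against fed 3 fell (9.16% were called lower). At 1 week against 1 h the myelin gene Mag and the lipogenic enzyme gene Me1 rose (Mag by 0.48 ± 0.07, edgeR adjusted p = 1.45e-04) and the myelin gene Mbp fell (-0.32 ± 0.07, adjusted p = 0.00361). At 12 h Mag rose and Mbp fell, at 1 month Mbp rose and Camk4 fell, and after 24 h none was called. The shares of all genes called were 26.9% at 1 week against 1 h, 14.2% at 12 h against 1 h and 10.1% at 1 month.

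The authors' deposited tables, from edgeR's likelihood ratio test and not the quasi-likelihood test used here, give q-values beside an adjusted p that equals a Bonferroni adjustment. In the authors' deposited tables a q-value below 0.05 was held by 169 of 18234 genes for fed over 24 h fasted and 2713 of 18381 for 72 h over 24 h fasted. It was held by 3260 of 18257 for 1 h over 12 h refed and 2915 of 18559 for 1 week over 12 h refed. Their direction varies, and is named here for each. In the authors' deposited table of fed over 24 h fasted, Hr had a log2 fold change of -0.87 and a q-value of 0.0286. In the authors' deposited table of 72 h over 24 h fasted, q-values were 0.0155 for Dio2, 0.00499 for Dio3 and 0.0453 for Klf9, none of which the quasi-likelihood test called here. In the authors' deposited table of 1 h over 12 h refed, Hr had 1.55 with a q-value of 6.89e-37, Dio2 0.67 with 0.00697 and Thra 0.22 with 0.0492. In the authors' deposited table of 1 week over 12 h refed, Thra had -0.26 with a q-value of 0.0158 and Hr 0.48 with 0.00769. Hr in the 12 h comparison was the one member with a Bonferroni-adjusted p below 0.05 in any of the authors' deposited tables used (7.84e-36).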

How the data were processed

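Total RNA of hypothalamus was depleted of ribosomal RNA and made into strand-specific libraries, per the labels' protocols. The submitters' processing notes name HISAT2, featureCounts, edgeR and the build mm10. The deposited counts per gene are raw, as the authors' 3 tables hold whole numbers that sum to different totals. The authors also deposited edgeR tables that give each gene a log2 fold change, an adjusted p-value and a q-value, quoted here as theirs, and 1 of them (1 week refed against fed) was not used. All 30 libraries were analysed. The count tables hold 2 further columns with a name found in no label, which were not read.

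In R 4.3.3, edgeR 4.0.16 was run on each table with all its groups: filterByExpr, TMM, and the robust form of its quasi-likelihood test (prior count 0.125, Benjamini-Hochberg adjustment over all genes tested, threshold 0.05). The p-values measure the spread between libraries, which may be technical. Replicates differed by more than counting noise, with a chi-square per degree of freedom of 3.19 or more. Alternatives were DESeq2 1.42.0, library totals without TMM, no filter, the 2 groups alone, the replicate number as a block, 1 surrogate variable (sva 3.50.0), and each library left out. In the fasting table fed library 2 and 24 h library 2 were also left out together, chosen after seeing the data. The 17 gene lists, 6 of pathways and 11 of cell types, and the members were chosen with earlier results of these data known. Named from a list were at most 4 called genes with the smallest adjusted p, and beside each member the 3 genes most like it in log2 CPM (prior count 0.5), apart from some genes that are not reported here. The fit was also run on counts simulated from its own dispersions, with a common mean per gene apart from genes given a set fold change. Such counts lack the uneven tissue content of the real libraries, so the run cannot speak to its effect.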

Additional observations from a re-analysis of the deposited data

Results flagged for a closer look

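Thrb in library 5 of the 1-month refed mice, at 42.7 CPM, stood apart from the other 3 libraries of its group, which lay between 32.6 and 33.5 CPM. The gap to the nearest of them was 0.907 of the range of the group, above Dixon's critical value of 0.829. It was the only such value among 21 groups of 4 libraries (Dixon's test by gene and group), and chance gives about 1 in 20. The fed controls of that table lay between 30.9 and 48.3 CPM.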

How the results depend on the processing

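Of 895 recomputed changes of single members, 842 kept their side of the threshold, 19 passed it only under the alternative, 34 lost it, and none of those called changed sign. Counts of members called moved by more than 1.5 times in these cases. DESeq2 called 1 against 0 at 24 h against fed and 1 against 0 at 72 h against 24 h. With 1 surrogate variable the count was 0 against 2 at 72 h against fed, with cold against fed and at 1 week against 12 h. Without TMM it was 1 against 0 with cold against 24 h (Slco1c1), and with the 2 groups alone it was 1 against 2 at 12 h against 1 h. With the replicate block it was 1 against 2 at 72 h against fed, where Dio3 was lost (edgeR adjusted p = 0.0525). In the other comparisons the block left the count within 1.5 times: at 12 h against 1 h Thra was lost (0.0593) and Klf9 gained (0.0170), and at 1 week against 1 h Dio2 was gained (0.0310). Same-numbered libraries deviated together (r above 0.1) in 4 of 18 pairs of the fasting table, 1 of 9 of the refeeding table and 0 of 3 of the 1-month table. Differently numbered ones did so in 8 of 36, 3 of 24 and 1 of 13 pairs. With so few libraries a group, these values cannot settle whether the replicate numbers pair the libraries. The numbers are those of the sample titles, which for the 1-week libraries differ from those in the library names.

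With each library left out in turn, the count ranged between 0 and 2 at 72 h against fed, 1 and 2 at 12 h against 1 h, 0 and 2 at 1 week against 12 h, 3 and 6 at 1 week against 1 h, 2 and 3 with cold against fed, and 0 and 1 at 1 month (Hr, without control library 5). It was 0 throughout in the other 3 fasting comparisons and at 24 h against fed. Without both libraries rich in liver, muscle or cortical transcripts, chosen after seeing the data, Hr and Dio3 were still called at 72 h against fed (1.09 and -2.21). Counts over all genes moved further: at 72 h against fed from 3072 to between 2 (1 surrogate variable) and 4707 (DESeq2), to 5446 without fed library 3 and to 434 without 72 h library 3; with cold against fed from 3661 to between 12 and 4975; at 1 week against 12 h from 2304 to between 727 and 2949; at 1 month from 1506 to between 130 and 1988; with cold against 24 h from 1424 to between 0 and 2830; at 72 h against 24 h from 333 to between 0 and 1776; at 24 h against fed from 7 to between 5 and 240; and with cold against 72 h from 0 to between 0 and 57. With each library left out, these counts ranged between 932 and 5507 with cold against fed, 39 and 989 with cold against 24 h (39 without cold library 1), 0 and 328 at 72 h against 24 h (0 without 72 h library 3), 3 and 56 at 24 h against fed (56 without 24 h library 2), 1314 and 3537 at 12 h against 1 h (1314 without 12 h library 3), 589 and 3050 at 1 week against 12 h (589 without 12 h library 3), 3606 and 4979 at 1 week against 1 h, and 775 and 2856 at 1 month (2856 without control library 5). The shares of all genes called in the report move with them.

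Group means of members moved by less than their SD in 59 of 63 cases with library totals. They also did so in 210 of 210 cases with a library left out. That count cannot speak to robustness, because leaving out a library cannot move a group mean by as much as the SD of the group. Depth limited Dio3 most, with 3 to 65 counts a library.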

Other observations

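After 1 month of refeeding, when no thyroid member was called, 5 of 12 endothelial markers rose, where 6.37% of all genes were called higher, among them Cdh5, the cadherin of endothelial junctions, at 37.2 ± 6.25 CPM in refed libraries, against 17.4 ± 2.97 CPM in fed controls (SD, n = 4 each; 1.09 ± 0.14, edgeR adjusted p = 1.17e-04). Of 11 tanycyte markers 1 was called, a share close to the 10.1% of all genes called. It was Vim, an intermediate filament gene, at 155 ± 43.3 CPM in refed libraries, against 62.2 ± 5.51 CPM in fed controls (SD, n = 4 each; 1.32 ± 0.19, edgeR adjusted p = 0.00341). Earlier in refeeding, at 12 h against 1 h, 2 of the 12 endothelial markers fell and 2 rose (14.2% of all genes were called). Mfsd2a, the lipid transporter of brain capillaries, fell to 11.3 ± 1.03 CPM at 12 h, against 35.5 ± 3.39 CPM at 1 h (SD, n = 3 each; -1.65 ± 0.12, edgeR adjusted p = 1.67e-06), as did Slc2a1, their glucose transporter (-0.65 ± 0.11, adjusted p = 0.00153), while Tek and Cdh5 rose.

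At 1 week against 1 h, 5 of 8 oligodendrocyte markers rose and 2 fell (median 0.35), and 5 of 10 astrocyte markers rose and 1 fell (median 0.23). There 26.9% of all genes were called and 13.5% called lower. At 72 h against fed, where 15.1% of all genes were called, none of 8 oligodendrocyte markers was, and of 10 astrocyte markers 2 fell and 1 rose. In that comparison 5 of 8 choroid plexus, 7 of 8 liver and 4 of 4 skeletal muscle markers tested fell, while the summed liver and muscle markers ranged widely among the fed libraries themselves, and none of 4 pituitary or 12 hypothalamic markers was called by edgeR.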
